A study of Mus musculus with 8 samples.

Results

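Protein sugars that form without an enzyme can be taken off again, and the reactive sugar fragments that cause much of this damage can be cleared before they reach a protein. The genes described here serve these steps, or lie beside one that does: Fn3k, Fn3krp, Glo1, Hagh, Btbd9 and Park7. They were chosen by gene name, from the annotation column of the scanner files, with the genotype differences of these same arrays already known, so their genotype differences are a description. Counts of members past a threshold are given only beside the share of all probes, and nothing is supported with them. The 6 genes, of 34650 gene names on the array, were covered by 11 of 55681 probes.

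Prefrontal cortex (PFC) RNA was measured with 1 Agilent one-color array per mouse, 4 arrays for α-Gal A(-/0) males and 4 for wildtype males. α-Gal A(-/0) mice lack the lysosomal enzyme α-galactosidase A (gene Gla) and serve as a model of Fabry disease, in which the glycolipid Gb3 builds up. All mice were 20 to 24 weeks old and labelled C57BL/6J, and the labels give no drug treatment for either group. Per the study's methods the mutants were on a C57BL/6 background, and for the arrays the genotypes came from separate inbred colonies. Genotype and colony therefore cannot be told apart on these arrays. Each mouse is 1 replicate, and p-values measure the spread between these mice.

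Values are log2 signals after quantile normalization across the 8 arrays, and a difference is the α-Gal A(-/0) mean minus the wildtype mean on that scale, with its standard error (SE) or 95% interval from limma. A probe was called at an adjusted p under 0.05 (Benjamini-Hochberg over all probes tested). Between 29948 and 36142 probes per array were well above background in α-Gal A(-/0) mice and between 35650 and 38243 in wildtype mice. The array probe for Gla gave 17.13, 17.18, 17.17 and 17.13 in α-Gal A(-/0) replicates 1 to 4 and 17.01, 17.17, 17.06 and 17.13 in wildtype. Its place relative to the disrupted part of the gene is not stated in the sources used here, so it checks nothing about the labels. The markers of excitatory and inhibitory neurons, astrocytes, oligodendrocytes, microglia and endothelium were well above background on all 8 arrays, as cortex should show. Markers of striatum were also there, with a mean log2 signal of 10.96 to 12.67 in α-Gal A(-/0) and 10.63 to 12.06 in wildtype. Differences of all 7 were positive (0.49 to 0.86), though none was called. The olfactory bulb list varied between mice, at 7.92 to 9.88 in α-Gal A(-/0) and 7.68 to 9.41 in wildtype. All 5 of its differences were positive and 1 was called. Choroid plexus markers had 3 positive and 2 negative differences. The part of other tissue in the member values was not tested. Among the cortex cell types, all 6 astrocyte and all 7 excitatory neuron markers had negative differences, none of them called. Inhibitory neuron markers had 3 positive and 3 negative differences, and endothelial markers had 3 positive and 2 negative. The part of these cell types was not tested either. All 8 arrays were on 1 slide, whose first row held wildtype replicates 1 to 3 and α-Gal A(-/0) replicate 1.

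Glycation begins when glucose or another sugar binds to a protein's lysine. Fructosamine 3-kinase (Fn3k) phosphorylates the bound sugar, which then falls off, and its relative Fn3krp acts on related sugar adducts. Methylglyoxal, a by-product of glycolysis, is joined to glutathione and handled by glyoxalase 1 (Glo1) and then by glyoxalase 2 (Hagh). Park7, known as DJ-1 and mutated in a familial form of Parkinson disease, has been described as a glyoxalase and deglycase, an activity that is debated. Btbd9, an adaptor of a ubiquitin ligase linked to restless legs syndrome, has no such role. It lies next to Glo1, and a duplication that holds both genes is known to differ between mouse strains.

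Probes are 60 bases long, and 30 bases of each are shown for the members that the results turn on, read 5′ to 3′ on the probe strand. They are shown because every later value is the signal of these sequences, and because pairs of probes for the same gene behaved differently. Capitals mark AATAAA, the signal that often precedes the end of an mRNA.

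Fn3krp, A_51_P418147: gaataatgaccaattctaaaatcaataacg
Fn3k, A_55_P2005859: gccccagggtgtgaccaagtttggctttca
Fn3k, A_55_P2040090: tgacagatgctcAATAAAtgcacatttgct
Glo1, A_51_P480982: attctcagaggtgatttgaagactcaacaa
Btbd9, A_55_P1968553: gctcaccatagaAATAAAgcagtgtcttcg
Btbd9, A_52_P488612: gcagatgtcatcactggggctttgagaagt

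AATAAA, searched on the probe strand over all 60 bases, was in 2 of the 11 member probes and in 10.1% of all 55681 probes. The longest run of bases that any member probe shared with a probe of another gene was 12 to 15 bases. On the array design's mm9 positions, the Fn3krp probe was at chr11:121292014-121292073 and the Fn3k probes lay 9333 and 12685 bases beyond it. The Glo1 probe was at chr17:30729951-30730010, and the 4 Btbd9 probes lay between 79.4 and 377 kb from it. Whether a probe falls in a coding exon or an untranslated region was not analysed here. All 11 member probes were well above background on all 8 arrays and passed every filter.

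Fn3krp, the kinase related to Fn3k, stood apart from the other genes on these arrays. Its log2 signal was 8.08, 7.85, 7.99 and 8.31 in α-Gal A(-/0) replicates 1 to 4 and 6.24, 6.25, 6.15 and 6.46 in wildtype. Every α-Gal A(-/0) mouse was above every wildtype mouse, with a gap between the genotypes wider than the range within either. The difference was 1.78 (SE 0.109, 95% interval 1.53 to 2.03), or 3.44-fold (2.89 to 4.09). Before normalization the same probe read 231 to 303 units in α-Gal A(-/0) and 73.4 to 89.7 in wildtype, a dim signal on both sides. Among 34344 probes tested, 82 differed by more and 27 were higher by more. In the first slide row the difference was 1.86 and in the second 1.59, so it was present within both. Each of these rests on 1 mouse of a genotype, α-Gal A(-/0) replicate 1 in the first row and wildtype replicate 4 in the second. With normexp background correction it was 1.197, the smallest value among the alternatives. The study also measured this gene by RT-qPCR in separate mice, with backcrossed mutants to control for colony effects. There the mutant mean was below the wildtype mean, the opposite direction to the arrays. The rise on the arrays was therefore not repeated in those mice. Why the measurements differ was not tested.

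Fn3k, which lies beside it, gave no such difference at either probe. The first Fn3k probe read 11.05, 11.62, 10.98 and 10.995 in α-Gal A(-/0) replicates 1 to 4 and 11.06, 10.84, 11.20 and 11.06 in wildtype. Apart from the value of α-Gal A(-/0) replicate 2, all were within the same narrow range. The difference was 0.12 (95% interval -0.23 to 0.47), and without that mouse, whose array had the fewest probes well above background (29948), it was -0.03. The other Fn3k probe read 7.86, 6.80, 6.91 and 6.65 in α-Gal A(-/0) and 6.98, 7.11, 6.99 and 6.75 in wildtype. Here α-Gal A(-/0) replicate 1 was high, and without it the difference of 0.10 (95% interval -0.47 to 0.67) turned to -0.17. The mouse that was high at one Fn3k probe was not high at the other. Both intervals lie below the Fn3krp interval.

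**Figure D1:**
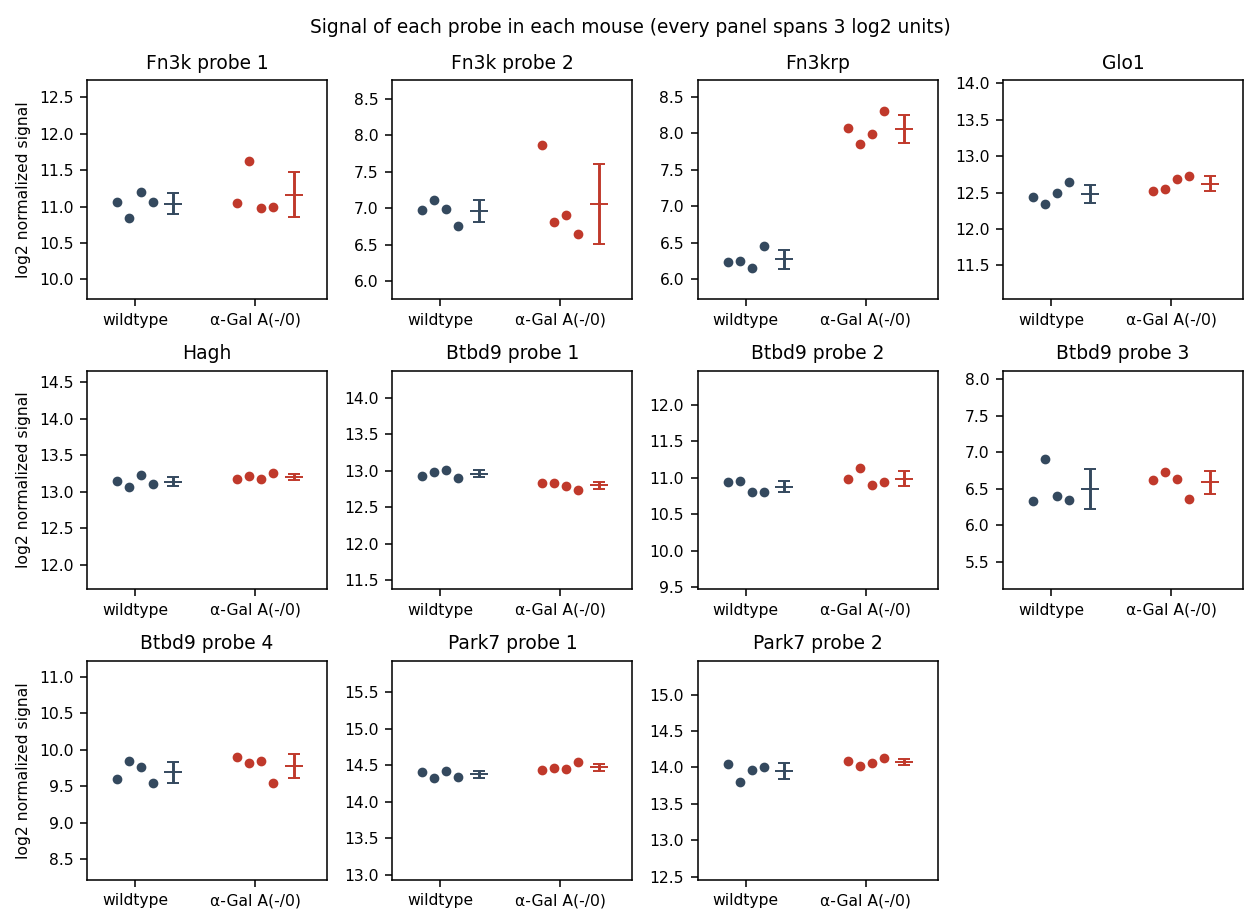
Log2 normalized signal of the 11 member probes in each mouse (points, 4 wildtype in blue and 4 α-Gal A(-/0) in red), with the mean and SD beside them, in panels of equal height. Probes of a gene are numbered in order of position. The Fn3krp groups do not overlap (7.85 to 8.31 against 6.15 to 6.46), while most other panels are level.

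Glo1, the first enzyme of the glyoxalase pathway, read 12.52, 12.54, 12.68 and 12.73 in α-Gal A(-/0) replicates 1 to 4 and 12.43, 12.35, 12.50 and 12.65 in wildtype. The groups overlapped, since wildtype replicate 4 lay above 2 of the α-Gal A(-/0) mice. The difference was 0.14 (95% interval -0.05 to 0.33), a ratio of 1.10 (0.966 to 1.26). Within the slide rows it was 0.098 and 0.0063, each again resting on 1 mouse of a genotype. Hagh, which completes the pathway by releasing lactate, read 13.17, 13.22, 13.17 and 13.26 in α-Gal A(-/0) and 13.15, 13.07, 13.23 and 13.11 in wildtype. Its difference was 0.07 (95% interval -0.06 to 0.20), so a change of Hagh beyond 1.14-fold upward was outside the interval.

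Btbd9 was read by 4 probes, which did not move in 1 direction. At A_55_P1968553 the α-Gal A(-/0) replicates 1 to 4 read 12.84, 12.83, 12.79 and 12.74 and the wildtype ones 12.93, 12.98, 13.01 and 12.90. Every α-Gal A(-/0) mouse was below every wildtype mouse there, by little: the difference was -0.16 (95% interval -0.28 to -0.04). A_52_P488612, designed on the same transcript accession and 2198 bases away, read 10.98, 11.13, 10.90 and 10.94 in α-Gal A(-/0) and 10.94, 10.96, 10.81 and 10.81 in wildtype. These groups overlapped, and the difference was 0.11 (95% interval -0.06 to 0.27), opposite in sign to that of its neighbour. A_55_P2040534 differed by 0.09 (SE 0.144) and A_55_P2040539 by 0.09 (SE 0.101), both with overlapping groups. The former was designed on a cDNA accession that was not matched in RefSeq.

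Glo1 and Btbd9 were then set side by side, to ask whether the pair differed together. The Glo1 difference was 0.14 and those of Btbd9 were -0.16, 0.11, 0.09 and 0.09, so no shared direction was present over all 5 probes. None of the 5 was called by limma, with adjusted p from 0.30 (the negative probe) to 0.85. Neither did single mice stand out at both genes. The mouse with the highest Glo1 signal, α-Gal A(-/0) replicate 4, had the lowest signal of all 8 at A_55_P1968553. No upper bound was above 0.42 on the log2 scale, the highest being that of A_55_P2040534. Copy number itself was not measured.

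Park7 was read by a pair of bright probes. The first read 14.44, 14.46, 14.46 and 14.54 in α-Gal A(-/0) replicates 1 to 4 and 14.41, 14.33, 14.43 and 14.34 in wildtype. The groups did not overlap, but the highest wildtype mouse lay just under the lowest α-Gal A(-/0) mouse, and the difference was 0.10 (95% interval -0.03 to 0.22). At the other probe α-Gal A(-/0) mice read 14.08, 14.03, 14.05 and 14.12 and wildtype mice 14.05, 13.80, 13.96 and 14.00. These overlapped, with a difference of 0.12 (95% interval -0.04 to 0.27).

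**Figure D2:**
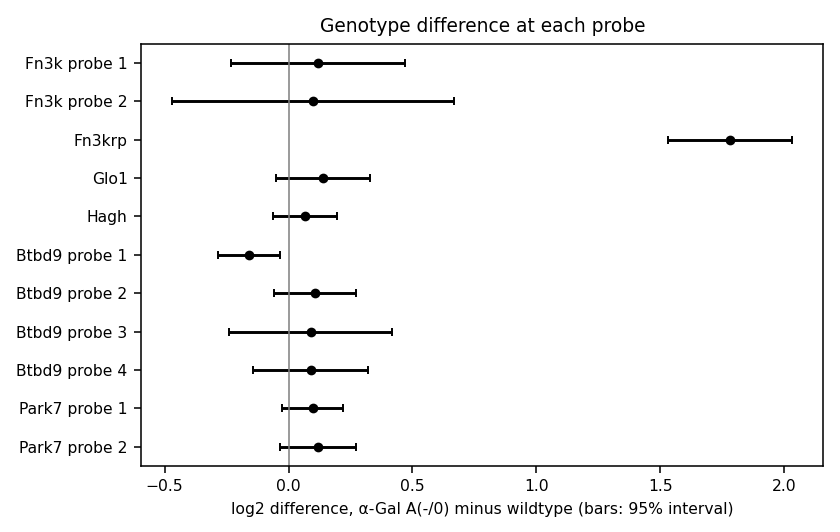
Log2 difference of α-Gal A(-/0) minus wildtype for each of the 11 probes (points) with its 95% interval from limma (bars), n = 4 mice per genotype. The Fn3krp interval, 1.53 to 2.03, lies apart from the rest, which centre between -0.16 and 0.14.

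Counted together, 1 of the 11 member probes was called, that of Fn3krp, where 0.885% of all 34344 probes tested were called (304 probes, 105 higher and 199 lower in α-Gal A(-/0)). In 3 of the 11 the genotypes did not overlap, against 7.96% of all probes. Since this contrast was known when the genes were chosen, nothing is read from either share. Of the 11 differences 10 were positive, with a median of 0.10, beside a median of -0.02 over all probes tested. In bulk tissue, fewer cells of a type and less RNA per cell cannot be told apart.

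The pattern over the 8 mice that was most like that of Fn3krp, among 15589 named genes, was that of Hyi, hydroxypyruvate isomerase (r = 0.993). Srp54c, a signal recognition particle subunit (r = 0.992), and Psmd2, a proteasome subunit (r = 0.988), followed. Hyi was 0.94 higher in α-Gal A(-/0) (SE 0.065), Srp54c 0.59 higher (a call lost without wildtype replicates 2 and 3, adjusted p = 0.095) and Psmd2 0.13 apart with no call, so their likeness to Fn3krp includes the split by genotype. The genes most like Glo1 were Spg21 (r = 0.977), Cep85 (r = 0.976) and T2 (r = 0.972), none of which was called. All of these correlations are over the same 8 arrays, whose genotypes they share, and are descriptions.

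Around Fn3krp and Fn3k on chromosome 11, genes within 1 Mb were compared in the same way, to see how far a difference extended. Of 76 neighbouring probes tested, from 53 genes, 1 was called, an unnamed probe (A_55_P2032311) with a difference of -0.58 (SE 0.091, adjusted p = 0.030). Its call was lost in 12 of 18 alternatives. The closest genes on either side were Rab40b, a small GTPase (0.04), and Tbcd, a tubulin-folding factor (-0.06 and 0.11 at a pair of probes). The genotypes did not overlap at 4 of the 76 probes (5.26%, beside 7.96% of all probes), and the median difference was -0.01. The highest difference among these neighbours was 0.47, at Notum, beside 1.78 at Fn3krp.

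**Figure D3:**
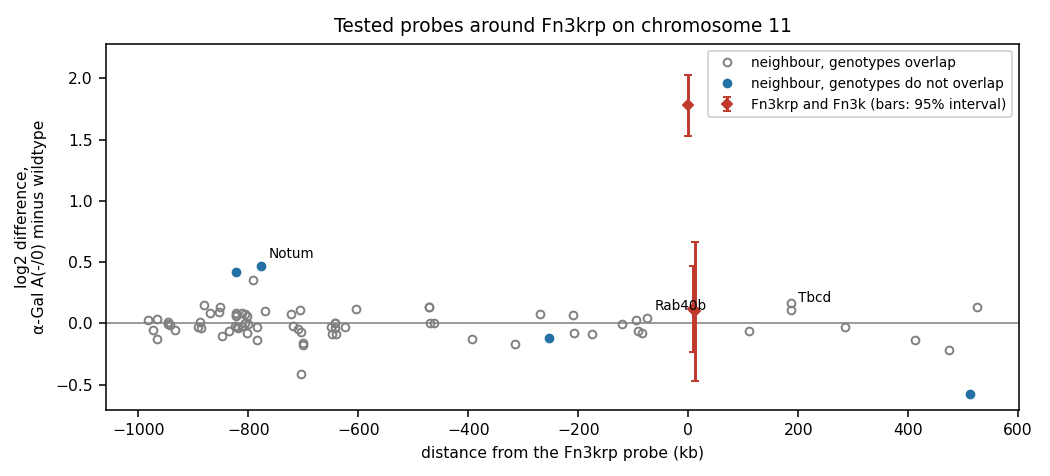
Log2 difference, α-Gal A(-/0) minus wildtype, of each tested probe within 1 Mb of Fn3krp and Fn3k against its distance from the Fn3krp probe in kb. Filled circles are neighbours whose genotypes do not overlap (4 of 76), open circles the others, and diamonds with 95% intervals are Fn3krp and Fn3k. The Fn3krp point at 1.78 is the highest in the window.

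Around Glo1 and Btbd9 on chromosome 17, 45 probes from 33 genes were tested. Ppil1, a peptidyl-prolyl isomerase of the spliceosome, fell by 0.50 (SE 0.072, adjusted p = 0.019), and it was the 1 probe called. It read 8.66, 8.62, 8.78 and 8.81 in α-Gal A(-/0) replicates 1 to 4 and 9.23, 9.09, 9.29 and 9.28 in wildtype. Its call was lost in 7 of 18 alternatives, among them with the slide row as a block (adjusted p = 0.062). The genotypes did not overlap at 14 of the 45 probes (31.1%, where 7.96% of all probes did so), 10 higher and 4 lower in α-Gal A(-/0), from 12 genes. These included Dnah8, a dynein heavy chain (0.33, adjusted p = 0.145), beyond Glo1 on the side away from Btbd9. Glp1r, the receptor of the incretin GLP-1, was dim there, well above background in 3 of 4 α-Gal A(-/0) and 4 of 4 wildtype mice. Its difference was 0.42 (adjusted p = 0.30), and 0.16 with normexp background correction. On the other side was Pi16, a peptidase inhibitor (1.33, adjusted p = 0.10). None of these passed the test. Zfand3, the gene at the end of Btbd9 that carries A_55_P1968553, had differences of -0.19 and -0.11.

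**Figure D4:**
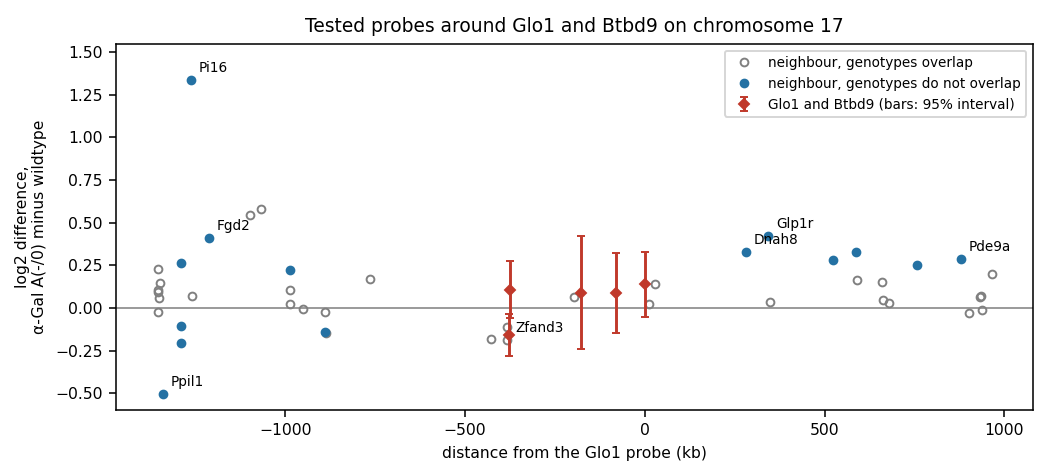
Log2 difference, α-Gal A(-/0) minus wildtype, of each tested probe within 1 Mb of Glo1 and Btbd9 against its distance from the Glo1 probe in kb. Filled circles are neighbours whose genotypes do not overlap (14 of 45), open circles the others, and diamonds with 95% intervals are Glo1 (at 0 kb) and the 4 Btbd9 probes. Glo1 and Btbd9 lie between -0.16 and 0.14, and the points away from the zero line are spread over both flanks.

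Of the wider pathways, 78 genes in 6 lists were on the array and 74 were tested, each by its brightest probe. None was called by limma, where 0.935% of all 23641 genes were called, and none by the probe-wise test of the study's methods. At an unadjusted p under 0.05 there were 10 of 74, where 12.2% of all genes (and 12% of all probes) were under it. Of the 74 differences 29 were positive and 45 negative, with a median of -0.02, equal to that over all genes at this rounding.

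Among 18 tested genes that clear reactive carbonyls by other routes, the lowest p values belonged to Akr1b10, an aldo-keto reductase (-0.21, adjusted p = 0.23), and Aldh1a1, an aldehyde dehydrogenase (-0.31, adjusted p = 0.28). Glutathione, the cofactor of Glo1, was covered by 14 tested genes of its synthesis, recycling, breakdown and the oxidant response. Of these, Nfe2l2, a transcription factor of the oxidant response, differed by -0.28 (adjusted p = 0.28) and Gclc, which catalyses the first step of glutathione synthesis, by 0.13 (adjusted p = 0.48).

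Receptors of glycation end products and related proteins were tested in 7 of 10 cases. The receptor Ager was not among the 7, though Diap1, a formin that binds its tail, was. Lgals3, a galectin that microglia express when activated, differed by -0.59 (SE 0.135, adjusted p = 0.13), or -0.33 with normexp background correction, and Ddost by 0.13 (adjusted p = 0.37). All 6 microglia markers had negative differences and 1, Csf1r, was called lower (adjusted p = 0.012, but 0.079 with the slide row and 0.083 with the replicate number as a block), with list means of 11.53 to 11.72 in α-Gal A(-/0) and 11.83 to 12.07 in wildtype. Their part in the Lgals3 value was not tested.

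Sugar uptake and the triose phosphates that give rise to methylglyoxal were covered by 15 genes. Slc2a5, a fructose transporter, read 9.75, 9.61, 9.69 and 9.55 in α-Gal A(-/0) replicates 1 to 4 and 9.15, 7.59, 7.39 and 7.58 in wildtype. Wildtype replicate 1 stood between the other wildtype mice and the α-Gal A(-/0) mice. The difference of 1.72 (SE 0.356) missed the threshold (adjusted p = 0.088), while without wildtype replicate 1 it was 2.13 (adjusted p = 0.0001). It passed in 2 of 18 alternatives, over which it ranged from 1.29 to 2.13 with adjusted p from 0.0001 to 0.45. Slc2a3, the neuronal glucose transporter, differed by 0.16 (adjusted p = 0.37).

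Of 8 Parkinson disease genes beside Park7, Uchl1, a ubiquitin hydrolase, differed by 0.12 (adjusted p = 0.40) and Fbxo7, an F-box protein, by -0.12 (adjusted p = 0.43). The 12 genes tied to Btbd9 and brain iron were led by Trf, transferrin (0.26, adjusted p = 0.33), and Ftl1, the ferritin light chain (-0.13, adjusted p = 0.45). Oligodendrocytes make much of the brain's transferrin, and of their 6 markers 5 had positive differences, 3 had an unadjusted p under 0.05 and none was called by limma. The mean log2 signal of that list was 13.10 to 13.16 in α-Gal A(-/0) and 12.84 to 13.11 in wildtype, and its part in the Trf value was not tested.

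**Figure D5:**
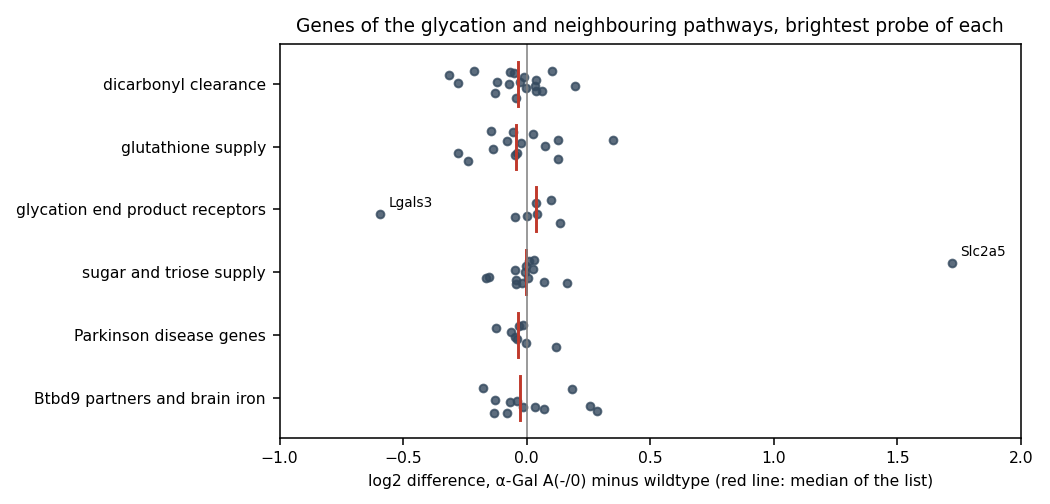
Log2 difference, α-Gal A(-/0) minus wildtype, of the 74 tested genes in 6 pathway lists (1 point per gene, brightest probe, vertical scatter without meaning), with the median of each list as a red line. Medians lie near 0, and the named points are Lgals3 (-0.59) and Slc2a5 (1.72).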

How the data were processed

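PFC RNA of 8 male mice, 4 per genotype, was hybridised to one-color Agilent arrays. The deposited intensity values were made by the authors with Agilent Feature Extraction 10.7.3.1 (per the labels), as processed signals not normalized between arrays. The series' table of values was not used. Spots of a probe were averaged before log2 transformation and quantile normalization across arrays. Control probes were then left out, as were 77 probes with uneven spots. No probe was saturated. A probe entered the test if it was well above background throughout 1 or both genotypes. The test was limma 3.58.1 in R 4.3.3 (statmod 1.5.0), two-sided, with Benjamini-Hochberg adjustment over 34344 probes. The steps were tested on simulated data. The number of arrays limits the precision.

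The members and gene lists were chosen with earlier results of these data known. All members were named with every probe, along with genes past the test in each list or otherwise the 2 with the lowest p, neighbours within 1 Mb that passed the test or lie next to a member, and the 3 genes most like Fn3krp and Glo1 by Pearson's r. The neighbours Glp1r, Dnah8 and Pi16 were named after their values were seen. The windows of Hagh and Park7 were also added then. Positions are those of the array design (mm9). Of 11 member accessions, 10 were matched in RefSeq, all with the same symbol. Figures used Python 3.11.15 with matplotlib 3.10.9, pandas 2.3.3 and numpy 2.4.6.

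Alternatives were a 75th percentile shift, normexp (offset 50), other filters, the methods' Welch test, a trend and robust fit, the slide row or the replicate number as a block, and each array left out in turn. Leaving out wildtype replicates 2 and 3 together was added after seeing the data, because of a result that is not reported here.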

Additional observations from a re-analysis of the deposited data

Results flagged for a closer look

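Within each genotype, the highest or lowest mouse at 38 of the named probes was compared with the nearest other mouse by Dixon's test. Pi16, Notum, Rere, Csf1r and Gla were not among these probes. Of 76 such groups of 4 mice, 6 passed the critical value, where chance flags about 1 in 20, or 3.8 of 76. Among the members, α-Gal A(-/0) replicate 2 was high at the Fn3k probe A_55_P2005859 (11.62, next 11.05). Wildtype replicate 2 was high at the Btbd9 probe A_55_P2040534 (6.91, next 6.40). α-Gal A(-/0) replicate 4 was high at the Park7 probe A_55_P2141429 (14.54, next 14.46). Wildtype replicate 1 was high at Slc2a5 (9.15, next 7.59). Wildtype replicate 2 was low at Lgals3 (6.97, next 7.37) and at Srp54c (12.65, next 12.74).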

How the results depend on the processing

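Among 18 alternatives, the Fn3krp difference ranged from 1.197 to 1.84, a description only, since the choice of members used it. The lower Btbd9 probe stayed negative in all 18 (-0.20 to -0.12) and Glo1 positive (0.05 to 0.19). Over all probes, 304 were called, and the adjusted p threshold of 0.05 was kept in every alternative. The count was 89 with the methods' Welch test, 150 with the slide row as a block, 125 without wildtype replicates 2 and 3, and 189 to 269 with 1 array left out (189 without wildtype replicate 3, 198 without wildtype replicate 4). Normexp gave a higher count, 402, as did the trend and robust fit, 438. With the replicate number as a replicate block the count was 157. Deviations from the genotype mean correlated at -0.09, 0.14, 0.01 and 0.15 between mice of the same number, for replicates 1 to 4. The mice numbered 1 also shared a slide row, as did those numbered 4. What else mice of the same number shared was not tested.

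Of the pathway genes, 1 was called with normexp and 0 to 1 with an array left out, Slc2a5 in both cases. The count of called neighbours of Glo1 and Btbd9, 1 in the main setting, was 3 with normexp, 0 with the Welch test, the slide row block and without wildtype replicates 2 and 3, and 0 to 1 with an array left out. For Fn3krp and Fn3k it was 0 with no filter, the Welch test, the replicate block, the slide row block and without wildtype replicates 2 and 3, and 0 to 1 with an array left out. Rab40b turned to -0.0034 with the 75th percentile shift and the Tbcd probe A_55_P2051293 to 0.029 without wildtype replicates 2 and 3. The cause was not tested.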

Other observations

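Slc2a5 lies within 1 Mb of Park7, and the window around Park7 held further differences. Rere, a nuclear receptor corepressor, read 6.69, 6.15, 6.70 and 6.36 in α-Gal A(-/0) replicates 1 to 4 and 7.17, 7.60, 7.57 and 7.60 in wildtype, a difference of -1.01 (SE 0.153, adjusted p = 0.025 by limma, 0.127 with the slide row and 0.147 with the replicate number as a block). It was the 1 probe called of 26 tested there. The genotypes did not overlap at 6 of these (23.1%, beside 7.96% of all probes). At Slc2a5 and Rere alike, wildtype replicate 1 lay nearest to the α-Gal A(-/0) mice. Around Hagh, 0 of 126 probes were called by limma, 11 had an unadjusted p under 0.05 (12% of all probes did), and 7 (5.56%) did not overlap.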
